A study of Mus musculus with 24 samples.

Results

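The nuclear genes of respiratory complexes II, III, IV and V were followed in sorted bone marrow stem and progenitor cells of normal and leukemic mice with and without miR-142. Members were taken by a rule on gene symbols that uses no measured value, although the rule was set with earlier results of these data known. It takes the names beginning with Sdha, Sdhb, Sdhc, Sdhd, Sdhaf, Uqcr, Uqcc, Cox4 to Cox8 or Atp5, together with Cyc1. The rule took 55 of the 24091 genes in the table, namely 8 of complex II, 12 of complex III, 18 of complex IV and 17 of complex V. By role, 38 of them were counted as subunits used in every tissue, 7 as tissue isoforms of complex IV, and the other 10 as assembly or associated factors. After the filter on low counts 52 members were tested; Cox7b2, Cox8b and Cox8c, which had at most 1 count in any library, were not.

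The respiratory chain passes electrons from nutrients to oxygen in the inner mitochondrial membrane. Complex II, succinate dehydrogenase, also works in the citric acid cycle and hands its electrons to coenzyme Q. Complex III carries them from coenzyme Q to cytochrome c, complex IV from cytochrome c to oxygen, and complexes III and IV pump protons as they do so. Complex V, the ATP synthase, lets the protons flow back through its membrane part and makes ATP in its F1 head. Complexes III, IV and V mix subunits from the mitochondrial genome with nuclear ones, whereas all subunits of complex II are nuclear. Quiescent hematopoietic stem cells are known for a low use of oxidative phosphorylation, and their more committed progeny for a higher one.

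The 24 libraries were bulk RNA-seq of LSKs (Lin- Sca-1+ c-Kit+ cells), the fraction of mouse marrow that holds stem cells and early progenitors, with 6 mice, 3 female and 3 male, in each of 4 groups on the B6 background. WT mice were miR-142+/+ without BCR-ABL and miR-142 KO mice were miR-142-/- without BCR-ABL. CP CML mice were miR-142+/+ BCR-ABL, a model of chronic phase chronic myeloid leukemia, and BC CML mice were miR-142-/- BCR-ABL, a model of blast crisis. BCR-ABL was carried in the SCLtTA/BCR-ABL strain, in which the SCL promoter drives the transactivator and removal of tetracycline turns the oncogene on; per the study's methods the leukemic mice were taken 2 weeks after that. The ages of the mice were not given, and the study's methods give fewer mice a group than the labels do.

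The library totals ran from 16267965 counts in CP CML replicate 1 to 24687077 in BC CML replicate 6. Mir142 had 94 to 127 counts in WT and 68 to 153 in CP CML, and 0 in all 12 libraries labelled as knockout, where a count of 0 allows up to 3. The gate genes Kit and Ly6a were detected in every library. The libraries named here by replicate carry numbers given in accession order. One library stood apart: miR-142 KO replicate 3, a female, was the highest of its group in 39 of the 52 tested members. WT replicate 6 was likewise highest in 38 and CP CML replicate 4 in 31, while CP CML replicate 6 was lowest in 30 and BC CML replicate 3 in 28, so members tended to be high or low together in a library. In bulk samples, fewer cells of a type and less RNA per cell cannot be told apart.

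The promoters of the members often held motifs of factors known to act on nuclear respiratory genes, and 1 promoter of each complex is shown before the levels because the genes of the 4 complexes were followed as a group. Promoters from RefSeq, 250 bases before to 50 after each start on build GRCm38.p6, were matched for 44 of the 55 members and came to 48. The NRF1 core GCGCANGCG, searched on both strands, lay in 15 of the 48 member promoters (31.3%) against 6.25% of all 32851 promoters. The ETS core CCGGAAG, the kind of site bound by GABP, was found in 15 (31.3%) against 8.86% of all. YY1 letters AAGATGGCG occurred in 8.33% against 1.40%, and the estrogen-related receptor letters TCAAGGTCA in 4.17% against 0.423%. At least 1 of the 4 motifs was in 54.2% of member promoters and 15.2% of all promoters, and motifs could overlap one another. By complex, NRF1 letters were in 4 of 7 promoters of complex II, 3 of 8 of complex III, 1 of 13 of complex IV and 7 of 20 of complex V. A match describes the letters in the window and was not tested as a site. Below, 120 bases before to 30 after the start are written 5' to 3' on the strand of the gene, with the matches in capitals. All 4 genes are on the minus strand, and the windows are chr13:74350211-74350360 for Sdha, chr10:80406792-80406941 for Uqcr11, chr5:115348929-115349078 for Cox6a1 and chr2:73911297-73911446 for Atp5g3.
Sdha: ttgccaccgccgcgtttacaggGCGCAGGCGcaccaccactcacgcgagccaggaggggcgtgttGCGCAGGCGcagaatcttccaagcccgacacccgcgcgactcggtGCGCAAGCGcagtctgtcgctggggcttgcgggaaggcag
Uqcr11: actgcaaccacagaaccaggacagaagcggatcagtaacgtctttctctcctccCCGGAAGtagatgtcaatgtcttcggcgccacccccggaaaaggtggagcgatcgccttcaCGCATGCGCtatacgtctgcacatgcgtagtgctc
Cox6a1: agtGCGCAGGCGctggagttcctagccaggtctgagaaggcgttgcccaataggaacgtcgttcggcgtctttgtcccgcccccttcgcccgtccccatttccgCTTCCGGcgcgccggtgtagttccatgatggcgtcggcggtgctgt
Atp5g3: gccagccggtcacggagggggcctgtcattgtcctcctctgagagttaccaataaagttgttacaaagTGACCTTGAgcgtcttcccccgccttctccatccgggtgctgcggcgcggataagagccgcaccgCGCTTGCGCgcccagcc
The capitals in Sdha mark 3 NRF1 matches. In Uqcr11 and Cox6a1 they mark 1 ETS and 1 NRF1 match each, and in Atp5g3 the estrogen-related receptor letters and 1 NRF1 match, both read from the other strand. The 4 were picked because their windows hold such letters, 1 gene for each complex. Between BC CML and CP CML their log2 fold changes were 0.03 for Sdha, 0.30 for Uqcr11, 0.31 for Cox6a1 and 0.27 for Atp5g3.

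How much each member contributed was compared as CPM per kb, the library-scaled count (CPM, scaled by the trimmed mean of M values, TMM) divided by the gene's length in the deposited table, averaged over the 24 libraries. The F1 head of complex V stood first. Atp5b, the catalytic beta subunit, had 625.5 CPM per kb and Atp5a1, the alpha subunit, had 438. Cox4i1, the largest nuclear subunit of complex IV, followed with 292, and Atp5g3, which encodes the c-ring subunit, with 236, which did not differ beyond its spread from Cox6b1 at 235. Uqcrh, the hinge protein of complex III, had 192 and was the highest gene of that complex. Within complex II the 4 subunits lay close together, from 88.3 for Sdhb to 135 for Sdha.

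The medians over subunits were 92.1 CPM per kb for complex II, 83.0 for III, 108 for IV and 103 for V. Without genes that share much of their sequence with other loci those of IV and V were 121 and 128, which turns their order. Again without such genes, the spread within a complex grew in the order II, III, IV, V. The highest subunit was 1.53 times the lowest in complex II, 4.80 times in III, 6.63 times in IV and 13.8 times in V. These ratios rest on 4, 9, 9 and 11 subunits, and such a ratio tends to grow with the number of genes. The lowest of complex V was Atp5f1 at 45.2, through a deposited length of 3.862 kb, against 1604 bases for its transcript. The genes left out were Atp5l, Atp5g1, Atp5g2, Cox7c and Atp5h. For each, over 30% of the read-length windows of the transcript occurred letter for letter in a GENCODE M21 transcript of another locus. For Atp5l 61.3% of windows were shared, for Atp5g1 48.1%, for Atp5g2 41.3%, for Cox7c 35.7% and for Atp5h 32.4%. The first 4 were at 1.08 to 2.54 CPM per kb on average although they encode subunits that every cell needs, and their levels are uncertain, since reads that match several places may have been left uncounted; that was not tested. Assembly and associated factors were lower than most subunits, from 68.9 CPM per kb for Uqcc2 to 5.88 for Sdhaf3. The muscle isoforms Cox6a2 and Cox7a1, at 3.13 and 1.03, and the lung isoform Cox4i2, at 3.35, were at the bottom of the tested members, whereas the testis isoform Cox6b2 had 22.7.

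**Figure D1:**
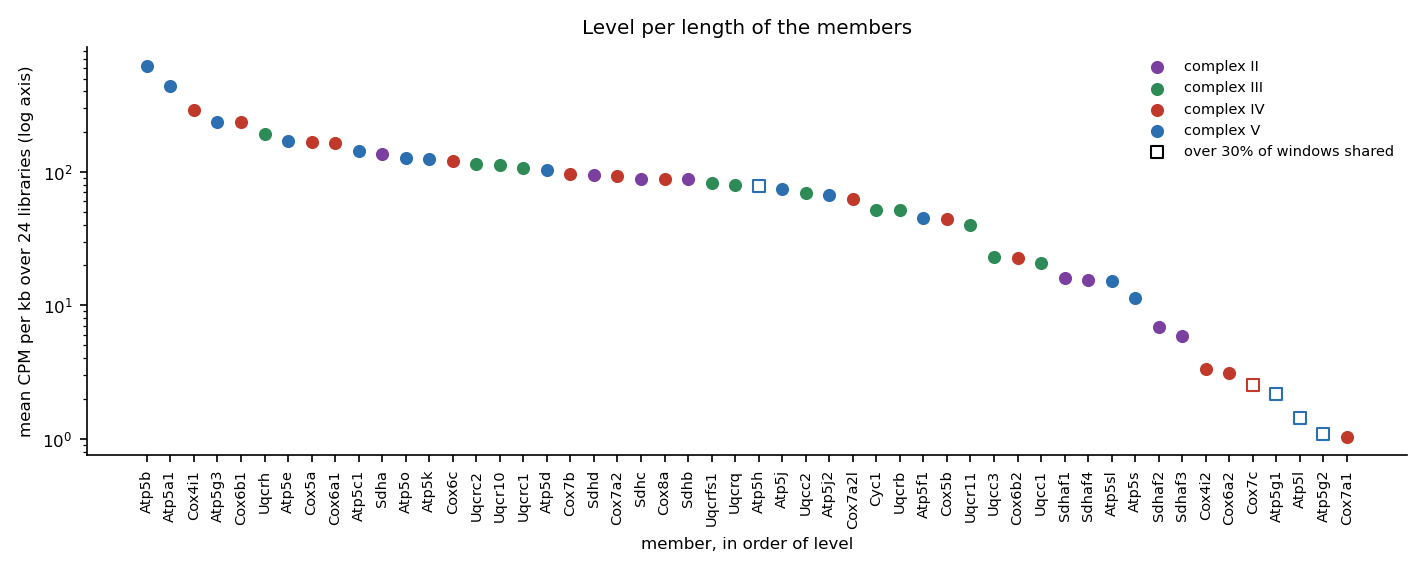
Mean level per length over the 24 libraries (CPM per kb, log axis) of each of the 52 tested members in order of level, coloured by complex II to V; open squares are members with over 30% of windows shared with other loci. Atp5b and Atp5a1 of complex V stand highest, at 625.5 and 438, and Cox7a1, a tissue isoform of complex IV, lowest at 1.03.

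By complex, the group means of all 4 stood in 1 order, with WT lowest, miR-142 KO next, then CP CML, and BC CML highest. The members held 0.528% of all counts for WT (range 0.496 to 0.582), 0.579% for miR-142 KO (0.538 to 0.679), 0.612% for CP CML (0.558 to 0.655) and 0.665% for BC CML (0.635 to 0.693), with ranges that overlapped between neighbouring groups. The mean log2 CPM over the complex II subunits was 7.03 ± 0.118 (SD, n = 6) for WT, 7.16 ± 0.123 for miR-142 KO, 7.20 ± 0.0663 for CP CML and 7.35 ± 0.0420 for BC CML. For complex III the means were 5.88 ± 0.121, 6.11 ± 0.170, 6.18 ± 0.11 and 6.42 ± 0.0866 in the same order. Those of complex IV were 5.48 ± 0.127, 5.64 ± 0.172, 5.71 ± 0.0934 and 5.93 ± 0.108, and those of complex V were 5.43 ± 0.104, 5.55 ± 0.119, 5.63 ± 0.0740 and 5.80 ± 0.109. No test was made of these means, because the members were chosen with earlier results of these data known.

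From CP CML to BC CML the mean level was higher by 0.145 (log2) in complex II, 0.241 in III, 0.219 in IV and 0.165 in V, that is 1.11-fold, 1.18-fold, 1.16-fold and 1.12-fold. Over all tested members of complex IV, the tissue isoforms included, the difference was 0.0842. Only the complex II values of the libraries did not overlap, with CP CML at 7.09 to 7.29 and BC CML at 7.30 to 7.40. Without the genes that share much of their sequence with other loci, the differences between BC CML and CP CML were 0.145, 0.241, 0.265 and 0.217. Complex IV then stood above III, so the order of the complexes depends on genes with uncertain levels. This alternative was chosen after seeing the data. From WT to miR-142 KO the differences were 0.133, 0.232, 0.160 and 0.122, and all 4 overlapped between groups. The library that stood apart carried part of these: without miR-142 KO replicate 3 they were 0.0833, 0.166, 0.0979 and 0.0770. With library totals in place of TMM scaling, the differences between BC CML and CP CML were 0.0787, 0.175, 0.154 and 0.101, and those between miR-142 KO and WT 0.0628, 0.162, 0.0902 and 0.0539, with every direction kept.

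**Figure D2:**
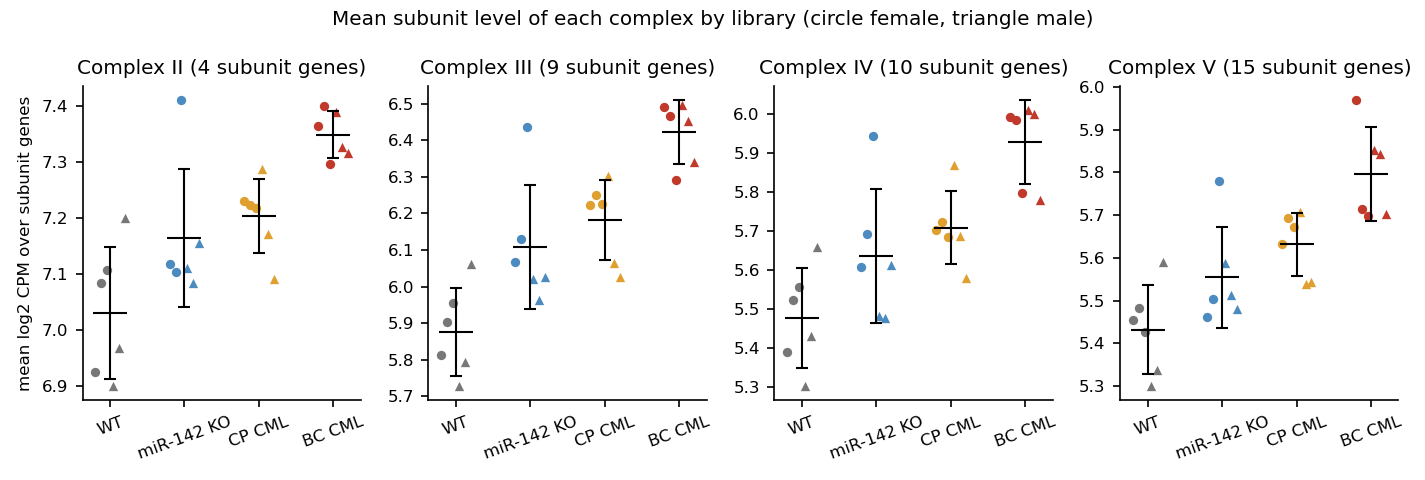
Mean log2 CPM over the subunits of each complex by library (points) in the 4 groups, with group mean and SD. In all 4 complexes the group means are ordered WT, miR-142 KO, CP CML, BC CML from lowest to highest, and miR-142 KO replicate 3 sits above its group.

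The comparison of BC CML with CP CML asks what the loss of miR-142 does in leukemic LSKs. Of the 52 tested members 33 were higher in BC CML and 1 was lower at an adjusted p of 0.05, by edgeR's quasi-likelihood test with Benjamini-Hochberg adjustment over all 13520 genes tested; of all genes 20.4% were called higher and 17.6% lower. The median log2 fold change of the members was 0.21, that is 1.15-fold, against 0.01 over all genes, and 45 of the 52 were positive. Changes were thus small and mostly upward. The groups did not overlap for 10 members that were higher, against 11.4% of all genes that were higher without overlap, and for 1 that was lower. The share of all genes lower without overlap is not given, here or in the comparisons below, so such counts stand without a background. By complex, 3 of 8 members of complex II were called higher, 10 of 12 of III, 9 of 15 of IV with 1 lower, and 11 of 17 of V; the medians were 0.13, 0.20, 0.26 and 0.21. Among subunits alone the counts were 2 of 4, 8 of 9, 8 of 10 and 10 of 15.

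The number of calls hung on single libraries more than the direction did. Without CP CML replicate 6 the count was 18 higher with a median of 0.16, and without CP CML replicate 5 it was 19. Without BC CML replicate 2 it was 20, and without BC CML replicate 4 also 20. Each fit had 1 lower, and 43 to 46 members were positive. Of all genes 2198, 2198, 2218 and 2242 were called higher in these fits, in the same order. With upper quartile scaling 21 members were higher and 1 lower, and over all genes 2162 were called higher and 2932 lower, against 2757 and 2380 with TMM. Within the females alone 1 member was called higher and 1 lower, with a median of 0.15 and 44 positive. Of all 13584 genes tested in females 855 were higher and 838 lower, so the members held no excess of calls there. Within the males 16 members were higher and 1 lower, with a median of 0.25 and 46 positive. Of all 13561 genes tested in males 2027 were higher and 1767 lower.

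The comparison of miR-142 KO with WT asks the same in LSKs without BCR-ABL. Here 24 of the 52 members were higher and 2 were lower, against 19.9% and 16.4% of all genes, with a median log2 fold change of 0.17 against 0.01 over all genes and 42 members positive. The groups did not overlap for 5 members that were higher, against 8.31% of all genes, and for 1 that was lower. Per complex, 2 of 8 members of II were higher and 1 lower, 8 of 12 of III were higher, 6 of 15 of IV were higher and 1 lower, and 8 of 17 of V were higher; the medians were 0.10, 0.26, 0.17 and 0.19. Without miR-142 KO replicate 3 the count was 16 higher and 2 lower with a median of 0.13. It was also 16 higher without WT replicate 1, 4 or 5. With upper quartile scaling 14 were higher and 4 lower, against 2115 and 2918 of all 13520 genes. Females alone gave 12 higher and 0 lower (median 0.25), against 1292 and 1016 of 13584 genes. Males alone gave 3 higher and 1 lower (median 0.09), against 1584 and 1331 of 13561 genes, so the members held no excess of calls in males.

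These comparisons share no samples. The members called higher in both were 21, which is 63.6% of those called higher in BC CML against CP CML and 87.5% of those called higher in miR-142 KO against WT; over all genes the 1560 shared calls were 56.6% and 58.1%. The members called higher only between the leukemic groups were Sdhd, Sdhaf2, Uqcrfs1, Uqcrh, Uqcc3, Cox6c, Cox7a2, Cox8a, Atp5e, Atp5j, Atp5j2 and Atp5k, and those called only between the normal groups were Sdhb, Uqcrq and Atp5a1. Whether a member's difference itself differed was asked with the interaction, (BC CML minus CP CML) minus (miR-142 KO minus WT). No member passed it by edgeR, 4 had an unadjusted p under 0.05, and 3.99% of all genes were called in either direction. DESeq2 called 1 member, Sdhaf2, which adds the flavin to Sdha, with an adjusted p of 0.040. By edgeR Sdhaf2 had 0.22 ± 0.07 (SE) and an adjusted p of 0.071, and Uqcrh 0.22 ± 0.08 and 0.097.

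**Figure D3:**
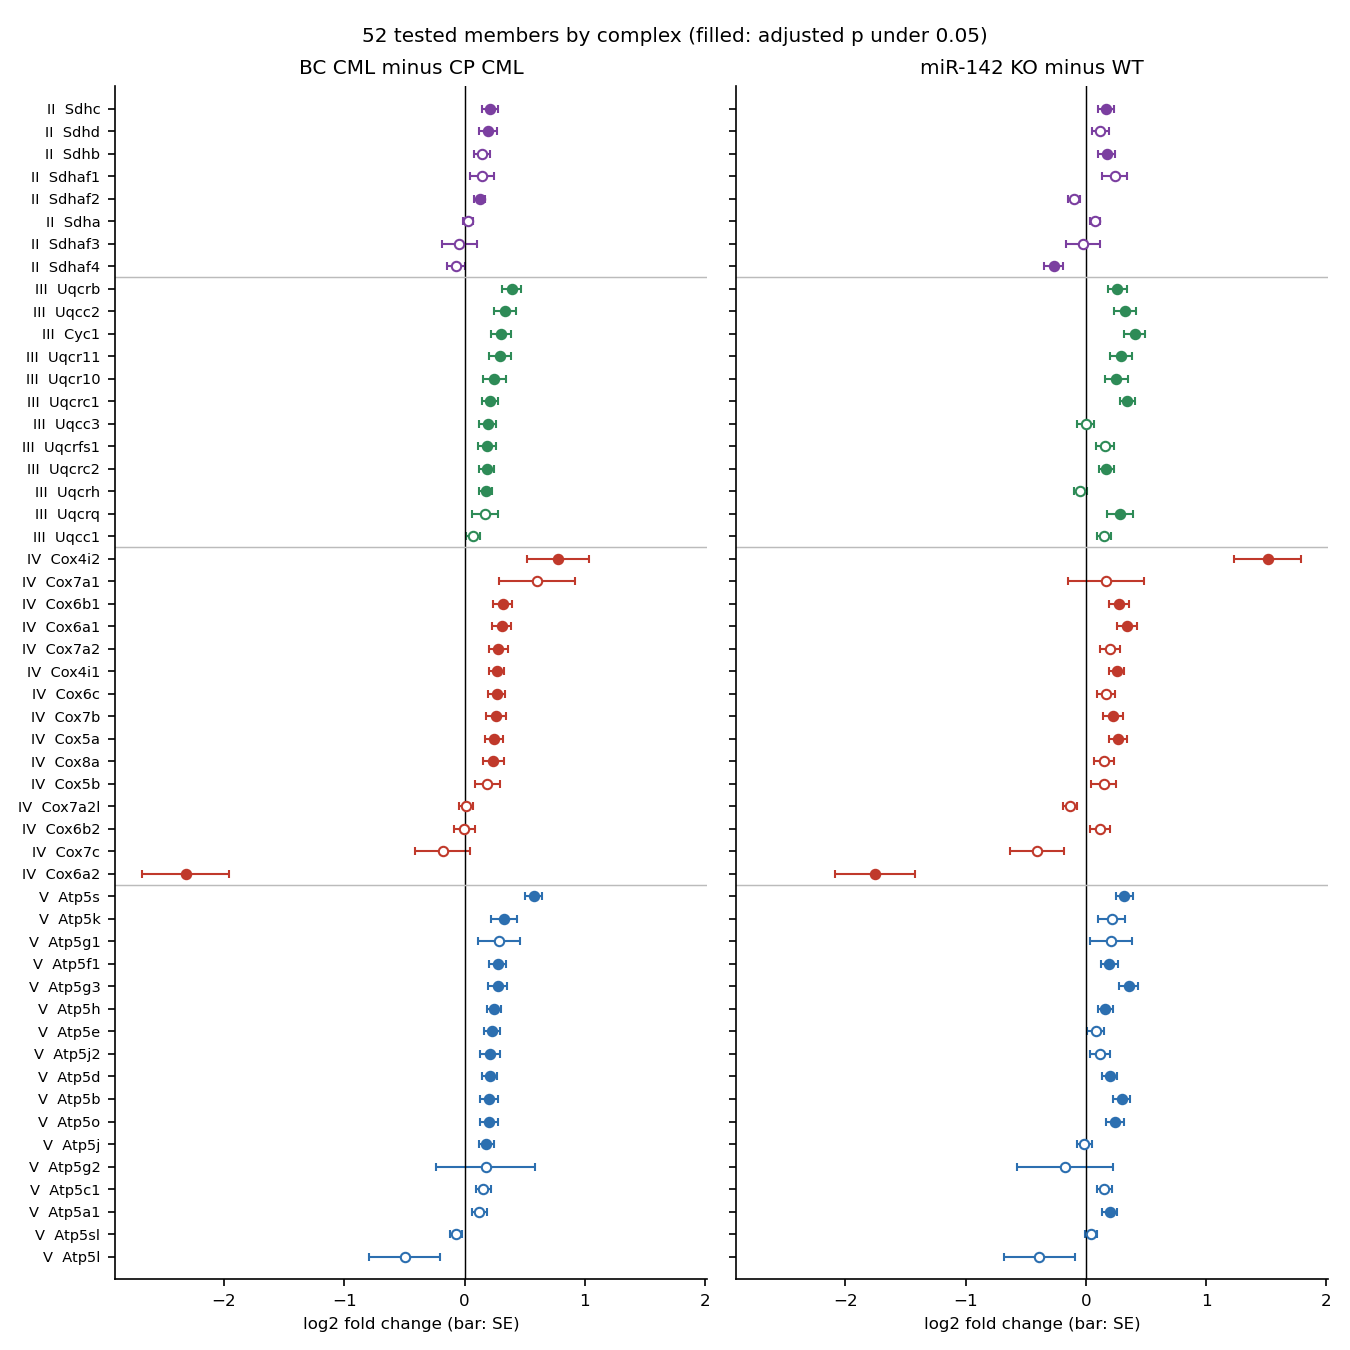
log2 fold change with SE of each tested member, by complex, for BC CML minus CP CML and for miR-142 KO minus WT on a shared axis; filled points have an adjusted p under 0.05. Most points lie between 0 and 0.5 in both comparisons, and Cox6a2 lies far below 0 and Cox4i2 above the rest in both.

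In complex II the membrane anchor Sdhc was called higher in both comparisons and the flavoprotein Sdha in neither; their difference was not tested. Sdha, the flavoprotein that oxidises succinate, lay in WT at 344, 358 and 383 CPM (lowest, median and highest of 6 mice), in the miR-142 KO group at 367, 371 and 412, in CP CML at 367, 404 and 408 and in BC CML at 377, 405 and 417. All 4 groups overlapped their neighbours, and the log2 fold change was 0.03 ± 0.04 (SE, adjusted p = 0.65) in BC CML against CP CML and 0.07 ± 0.04 (adjusted p = 0.16) in miR-142 KO against WT. Sdhc, a membrane anchor that helps to hold the heme, lay in WT at 85.0, 94.2 and 108 CPM, in the miR-142 KO group at 94.9, 105 and 125, in CP CML at 94.5, 99.0 and 109 and in BC CML at 108, 116 and 122. It was 0.21 ± 0.06 higher in BC CML (adjusted p = 0.010) and 0.17 ± 0.06 higher in miR-142 KO (adjusted p = 0.039), with overlap in both. The second call was lost without WT replicate 1, 4 or 5 or miR-142 KO replicate 1 or 3.

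Sdhd, the other anchor, lay in WT at 88.4, 103 and 119 CPM, in the miR-142 KO group at 103, 107 and 136, in CP CML at 116, 128 and 137 and in BC CML at 130, 151 and 156. The difference was 0.20 ± 0.07 between the leukemic groups (adjusted p = 0.035) and 0.12 ± 0.07 between the normal ones (adjusted p = 0.20), and the first call was lost in 15 of the 24 fits with 1 library left out, at 0.15 to 0.21 over all 24. Sdhb, the iron-sulfur subunit, was 0.17 ± 0.07 higher in miR-142 KO (adjusted p = 0.050) and 0.15 ± 0.07 in BC CML (adjusted p = 0.091); its call was lost without WT replicate 1, 4 or 5 or miR-142 KO replicate 3, at 0.10 to 0.21 over the 24 fits.

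The assembly factors of complex II did not share a direction. Sdhaf2 was 0.12 ± 0.05 higher in BC CML (adjusted p = 0.046), at 40.7, 43.9 and 49.1 CPM in CP CML and 44.3, 48.4 and 51.9 in BC CML, and had -0.10 ± 0.05 in miR-142 KO against WT (adjusted p = 0.13). The BC CML call of Sdhaf2 was lost in 20 of the 24 fits with 1 library left out, at 0.09 to 0.14 over all 24. Sdhaf4, which acts on the flavinated Sdha before the complex is joined, was the only member of complex II called lower in either comparison. In miR-142 KO it fell by 0.27 (SE 0.07, adjusted p = 0.0071), from 10.2, 11.5 and 13.0 CPM in WT to 8.75, 9.79 and 10.3. Calls in complex II were few and depended on single libraries: the 3 of BC CML against CP CML dropped to 1 without any one of 14 libraries.

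Of the 12 members of complex III 10 were called higher, a count that dropped to 5 without certain libraries given further on, and every one of its 12 members had a positive log2 fold change in BC CML against CP CML. Cyc1, cytochrome c1, which passes electrons on to cytochrome c, lay in WT at 62.4, 68.0 and 77.3 CPM, in the miR-142 KO group at 78.0, 86.9 and 123, in CP CML at 81.8, 100 and 106 and in BC CML at 106, 118 and 128. It lies at chr15:76343523-76345934 (mm10, plus strand). Its groups did not overlap in either comparison, and it was 0.30 ± 0.09 higher in BC CML (1.23-fold, adjusted p = 0.0080) and 0.41 ± 0.09 higher in miR-142 KO (1.32-fold, adjusted p = 0.00080). Without miR-142 KO replicate 3, which held the value of 123, the second difference was 0.31.

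Uqcrb, a small quinone-binding subunit, lay in WT at 19.7, 21.8 and 25.7 CPM, in the miR-142 KO group at 24.5, 25.2 and 32.6, in CP CML at 22.1, 23.1 and 25.4 and in BC CML at 25.9, 30.9 and 34.6. It had the lowest p of complex III between the leukemic groups, 0.39 ± 0.08 higher without overlap (adjusted p = 0.00041), and was 0.26 ± 0.08 higher in miR-142 KO (adjusted p = 0.012). Of its windows 15.4% were shared with other loci. Uqcc2, an assembly factor that acts on newly made cytochrome b, was 0.34 ± 0.09 higher in BC CML (adjusted p = 0.0057) without overlap, at 27.0, 30.1 and 34.3 CPM in CP CML and 35.1, 37.8 and 41.4 in BC CML.

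Uqcrc1, the first core protein, went from 130, 137 and 152 CPM in WT to 162, 174 and 205 in miR-142 KO, without overlap (0.35 ± 0.07, adjusted p = 0.00025). In BC CML it was 0.21 ± 0.07 higher than in CP CML (adjusted p = 0.015), at 189, 208 and 222 CPM against 158, 183 and 208, a call lost without CP CML replicate 5 or 6 or BC CML replicate 2 or 4 (0.15 to 0.23). Uqcrh was 0.18 ± 0.05 higher in BC CML without overlap (adjusted p = 0.012) and had -0.05 ± 0.05 in miR-142 KO (adjusted p = 0.51). Uqcrq was the reverse in its calls, at 0.28 ± 0.11 in miR-142 KO (adjusted p = 0.044) and 0.17 ± 0.11 in BC CML (adjusted p = 0.23); its call was lost without WT replicate 1, 2, 4 or 5 or miR-142 KO replicate 1, 2 or 3 (0.18 to 0.37). The count in complex III was 5 without CP CML replicate 5 or 6 or BC CML replicate 2 or 4, and 6 without BC CML replicate 5.

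In complex IV 8 of the 10 subunits used in every tissue were called higher in BC CML than in CP CML, whereas the tissue isoforms did not share a direction. Cox4i1 lay in WT at 161, 178 and 205 CPM, in the miR-142 KO group at 194, 213 and 248, in CP CML at 203, 225 and 246 and in BC CML at 248, 269 and 284. All BC CML libraries were above all CP CML ones, by 0.27 ± 0.06 (1.20-fold, adjusted p = 0.0021), while miR-142 KO and WT overlapped at 0.26 ± 0.06 (adjusted p = 0.0030). Cox6b1, a subunit on the side of the intermembrane space, lay at 104, 118 and 133 CPM in CP CML and 130, 150 and 158 in BC CML, higher by 0.32 ± 0.08 (adjusted p = 0.0039), and was 0.27 ± 0.08 higher in miR-142 KO than in WT (adjusted p = 0.012).

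Cox6a1, the ubiquitous form of subunit 6a, lay in WT at 61.5, 70.6 and 78.9 CPM, in the miR-142 KO group at 76.1, 87.3 and 106, in CP CML at 71.1, 84.3 and 98.3 and in BC CML at 97.6, 105 and 112. It was 0.31 ± 0.08 higher in BC CML (adjusted p = 0.0045) and 0.34 ± 0.08 in miR-142 KO (adjusted p = 0.0020). Cox5a, Cox6c, Cox7a2, Cox7b and Cox8a were also called higher in BC CML, at 0.24 to 0.28. Cox5b did not pass (0.19 ± 0.10, adjusted p = 0.16), nor did Cox7c, whose level is uncertain (-0.18 ± 0.23, adjusted p = 0.56). Cox7a2l, known as a supercomplex factor, was level between the leukemic groups in its medians, 70.6 and 70.2 CPM, at 0.01 ± 0.06 (adjusted p = 0.90). Supercomplexes were not measured here.

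Of the 7 tissue isoforms, 4 were tested. Cox6a2, the heart and muscle form of subunit 6a at chr7:128205435-128206366 (minus strand), lay in WT at 2.38, 3.99 and 5.91 CPM, in the miR-142 KO group at 0.354, 1.15 and 1.95, in CP CML at 1.24, 2.32 and 3.93 and in BC CML at 0.173, 0.594 and 0.660. Neither pair with and without miR-142 overlapped. In raw counts these values rested on 58 to 141 for WT, 8 to 44 for miR-142 KO, 30 to 90 for CP CML and 4 to 15 for BC CML. Against CP CML, Cox6a2 was 5.0-fold lower in BC CML (log2 -2.32 ± 0.36, adjusted p = 2.8e-05), and against WT it was 3.37-fold lower in miR-142 KO (log2 -1.75 ± 0.33, adjusted p = 0.00023). It was the only member called lower between the leukemic groups. The summed CPM of B lineage markers was lower in the same groups, through a few of its genes. It had a median of 395 for WT (69.6 to 957), 39.1 for miR-142 KO (27.3 to 45.7), 335 for CP CML (166 to 746) and 36.7 for BC CML (28.5 to 40.1), with no marker of the 9 at 0 in a group, and 3 of the 8 tested were called lower in BC CML (Jchain, Mzb1 and Cd79a) and 2 in miR-142 KO (Jchain and Mzb1), while 4 and 3 of the 8 had positive log2 fold changes. Siglech, a marker of plasmacytoid dendritic cells from a list added after values were seen, was also lower, by log2 -2.86 (adjusted p = 0.016) and -2.30 (adjusted p = 0.013), while Ccr9 of that list was higher by 2.04 and 1.73. In that list of 6, 2 of the 5 tested genes were called lower in BC CML and 3 in miR-142 KO, Klk1 was at 0 in every library, and the summed CPM ran from 213 to 354 over all 24 libraries. The part of these cells in the Cox6a2 difference was not tested.

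Cox4i2, the lung form of subunit 4 at chr2:152754173-152765037 (plus strand), moved the other way. It lay in WT at 0.802, 0.964 and 1.22 CPM, in the miR-142 KO group at 1.28, 2.11 and 6.33, in CP CML at 1.88, 2.61 and 2.79 and in BC CML at 3.22, 4.38 and 4.64. The groups did not overlap in either comparison, with 1.71-fold more in BC CML than in CP CML (log2 0.78 ± 0.26, adjusted p = 0.021) and 2.85-fold more in miR-142 KO than in WT (log2 1.51 ± 0.28, adjusted p = 0.00016). The highest value was again miR-142 KO replicate 3, and without it the second difference was 1.12 with an SE of 0.20. Without CP CML replicate 5 the first was 0.69 and not called (adjusted p = 0.056). Cox7a1, the muscle form of subunit 7a, was at 0.139 to 0.638 CPM over all libraries and did not pass in either comparison (0.60 ± 0.32, adjusted p = 0.14, and 0.17 ± 0.32, adjusted p = 0.70). Cox6b2, the testis form of subunit 6b, had medians of 11.9 CPM in both leukemic groups (0.00 ± 0.09, adjusted p = 0.98).

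**Figure D4:**
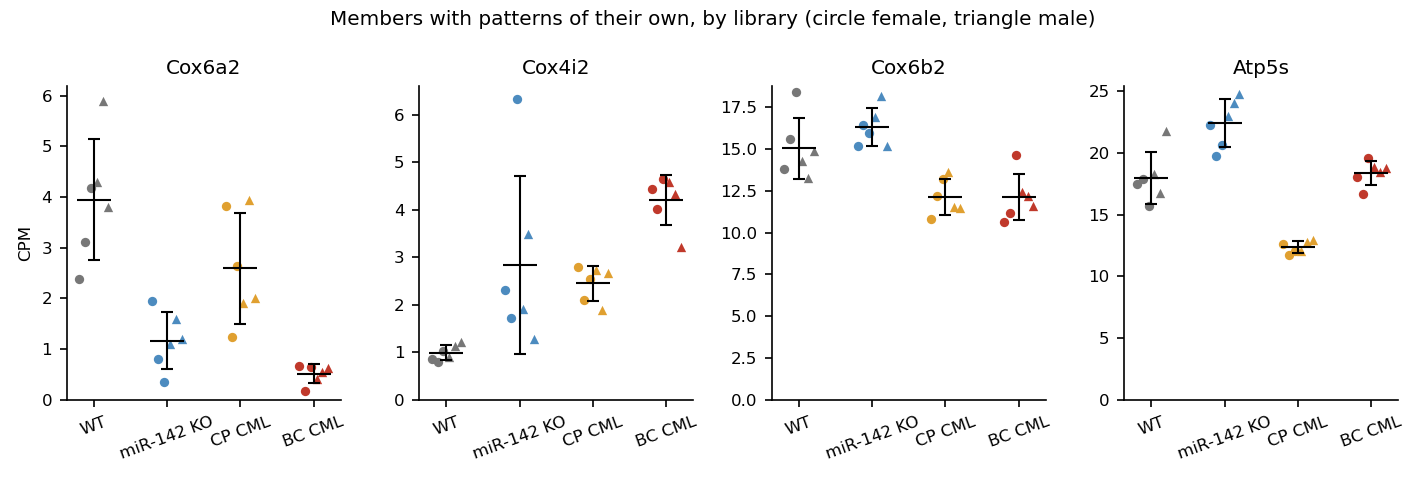
CPM by library of Cox6a2, Cox4i2, Cox6b2 and Atp5s in the 4 groups; circles are females, triangles males, and bars give mean and SD. By group mean Cox6a2 is lowest and Cox4i2 highest in BC CML, although miR-142 KO replicate 3 has the highest single Cox4i2 value, 6.33; Cox6b2 is lower in both leukemic groups than in miR-142 KO, and Atp5s is lowest in CP CML and highest in miR-142 KO.

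In complex V, 10 of the 15 subunits were called higher in BC CML, and the strongest change was in an associated factor. Atp5s, coupling factor B, which is not a core subunit and lies at chr12:69724962-69744658 (plus strand), lay in WT at 15.7, 17.7 and 21.8 CPM, in the miR-142 KO group at 19.8, 22.6 and 24.8, in CP CML at 11.7, 12.3 and 13.0 and in BC CML at 16.7, 18.6 and 19.6. Every BC CML library was above every CP CML one, by 0.57 ± 0.07 (1.49-fold, adjusted p = 1.4e-06). In the normal mice it was 0.32 ± 0.07 higher in the knockout (1.25-fold, adjusted p = 0.0010), with overlap. Its relative Atp5sl is not a core subunit either. RefSeq names Atp5s Dmac2l and Atp5sl Dmac2, and both were counted in complex V here only through their older symbols. Atp5sl had -0.07 ± 0.05 (adjusted p = 0.30) and 0.05 ± 0.05 (adjusted p = 0.51).

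In the F1 head, Atp5b lay in WT at 868, 917 and 1003 CPM, in the miR-142 KO group at 1007, 1100 and 1434, in CP CML at 1060, 1245 and 1309 and in BC CML at 1300, 1387 and 1473. It did not overlap between miR-142 KO and WT (0.30 ± 0.07, adjusted p = 0.0024), whereas the leukemic groups overlapped slightly (0.20 ± 0.07, adjusted p = 0.030). Without CP CML replicate 5 or 6 that leukemic difference was 0.16 or 0.15 and the call was lost (adjusted p = 0.098 and 0.11), as it was without CP CML replicate 1 or BC CML replicate 1, 2 or 4. Atp5a1 had 0.12 ± 0.06 (adjusted p = 0.13) between the leukemic groups and 0.20 ± 0.06 (adjusted p = 0.018) between the normal ones.

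Of the stalk and ring genes, Atp5f1, Atp5h and Atp5g3 were among those called higher in BC CML. Atp5f1, subunit b of the peripheral stalk, lay at 168, 173 and 181 CPM in CP CML and 184, 213 and 228 in BC CML, without overlap (0.28 ± 0.07, adjusted p = 0.0035), and was 0.19 ± 0.07 higher in miR-142 KO (adjusted p = 0.035), a call lost without WT replicate 1, 4 or 5 or miR-142 KO replicate 3 or 6 (0.13 to 0.24). Atp5h, subunit d of the same stalk, was also apart, at 39.6, 42.0 and 46.9 CPM against 47.8, 49.0 and 55.5 (0.24 ± 0.06, adjusted p = 0.0028), with 32.4% of its windows shared. Atp5g3 was 0.27 ± 0.08 higher in BC CML (adjusted p = 0.0082) and 0.36 ± 0.08 in miR-142 KO (adjusted p = 0.0011), from 112, 127 and 149 CPM in WT to 147, 156 and 214. Its paralogs Atp5g1 and Atp5g2, with uncertain levels, had 0.29 ± 0.17 (adjusted p = 0.20) and 0.17 ± 0.41 (adjusted p = 0.77) in BC CML. The count in complex V was 5 to 7 without CP CML replicate 5 or 6 or BC CML replicate 1, 2, 4 or 5.

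Ratios of 2 genes within a library depend little on how libraries are scaled, except for genes near the pseudocount such as Cox6a2 and Cox7a1. Of 10 pairs 8 could be tested in both comparisons, 16 tests by two-sided exact permutation over 6 against 6 libraries, whose smallest possible p is 0.00216, and 9 of the 16 had an adjusted p under 0.05. The muscle to ubiquitous ratio Cox6a2/Cox6a1, as log2 of CPM plus 0.5, was -4.03 ± 0.41 (SD) for WT and -5.82 ± 0.68 for miR-142 KO, and -4.85 ± 0.53 for CP CML and -6.72 ± 0.38 for BC CML. Both drops, -1.79 and -1.87, were without overlap and had the smallest possible exact p (adjusted p = 0.0173), and with 0.1 CPM in place of 0.5 they were -2.12 and -2.42. Cox4i2/Cox4i1 was higher by 0.76 in miR-142 KO (exact permutation, adjusted p = 0.0308) and by 0.41 in BC CML (adjusted p = 0.0231).

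Cox6b2/Cox6b1 was lower by 0.32 in BC CML (exact permutation, adjusted p = 0.0308), since Cox6b1 rose and Cox6b2 had 0.00, and differed by -0.15 in miR-142 KO (adjusted p = 0.237). The call was lost in 10 of 12 tests with 1 library left out, all but those without CP CML replicate 1 or BC CML replicate 3 (exact permutation, adjusted p = 0.0519 to 0.0554). Cox7a2l/Cox7a2 was lower by 0.27 in BC CML and by 0.33 in miR-142 KO (exact permutation, adjusted p = 0.0308 for both). Its first call was lost without CP CML replicate 2, 5 or 6 or BC CML replicate 1, 2, 4 or 6 (exact permutation, adjusted p = 0.0519 to 0.0554), and its second without WT replicate 1, 3, 4 or 5 or miR-142 KO replicate 1, 2 or 3 (exact permutation, adjusted p = 0.0539 to 0.0616). Within complex II, Sdhaf2/Sdha and Sdhb/Sdha were higher in BC CML by 0.10 and 0.12 (exact permutation, adjusted p = 0.0308 for both), and in miR-142 KO they differed by -0.17 (adjusted p = 0.0519) and 0.09 (adjusted p = 0.176). In BC CML the Sdhaf2/Sdha call was lost in 8 of 12 tests, those without CP CML replicate 2 to 6 or BC CML replicate 1, 2 or 6, and the Sdhb/Sdha call in 9 of 12, those without CP CML replicate 2, 3, 5 or 6 or BC CML replicate 1, 2, 3, 5 or 6 (exact permutation, adjusted p = 0.0519 to 0.0554). Without WT replicate 2 or 6 the Sdhaf2/Sdha difference in miR-142 KO had an adjusted p of 0.0485 or 0.0260 (exact permutation). Cox7a1/Cox7a2 differed by -0.03 and -0.13 (exact permutation, adjusted p = 0.762 and 0.322), and with 0.1 CPM as pseudocount by 0.15 and -0.06. The ratio of the ATP synthase inhibitor Atpif1 to Atp5b differed by -0.02 in BC CML and -0.10 in miR-142 KO (exact permutation, adjusted p = 0.593 and 0.120).

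The remaining comparisons ask what BCR-ABL does with and without miR-142; CP CML against WT shares its samples with both comparisons above, as does BC CML against miR-142 KO. With miR-142 present, 29 of the 52 members were higher in CP CML than in WT and 4 were lower, against 22.5% and 22.9% of all genes, with a median of 0.20 against -0.02 over all genes. The groups did not overlap for 9 members that were higher, against 11.9% of all genes, and for 1 that was lower. Females alone gave 17 higher and 1 lower, and males alone 16 and 1. Of all genes 1739 were higher and 1320 lower in females, and 1936 and 1813 in males. By complex 3 of 8, 8 of 12, 9 of 15 and 9 of 17 were higher in II, III, IV and V. Cox4i2 had the largest rise, 1.30 ± 0.28 (2.46-fold, adjusted p = 0.00069), followed by Uqcrq at 0.59 ± 0.11 (adjusted p = 0.00018), from 24.8, 27.9 and 37.5 CPM to 39.0, 43.4 and 52.6 without overlap. Sdha passed here, by 0.13 ± 0.04 (adjusted p = 0.010).

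The members called lower in CP CML than in WT were factors and an isoform rather than core subunits. Atp5s fell by 0.54 (SE 0.07, adjusted p = 4.1e-06), with all CP CML libraries below all WT ones. Cox6b2 fell by 0.31 (SE 0.09, adjusted p = 0.0057), from 13.3, 14.6 and 18.4 CPM in WT to 10.8, 11.9 and 13.6 in CP CML. Sdhaf4 and Cox7a2l fell by 0.21 and 0.14 (adjusted p = 0.026 and 0.047). Cox6a2 had -0.61 ± 0.32 (adjusted p = 0.12).

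Without miR-142, 31 members were higher in BC CML than in miR-142 KO and 3 were lower, against 20.3% and 19.3% of all genes, with a median of 0.23 against -0.02 over all genes. All 9 subunits of complex III and 9 of the 10 of complex IV were among those higher. No member that was higher had groups without overlap, against 6.09% of all genes. Without miR-142 KO replicate 3 the count was 41 higher and 4 lower, against 3211 and 3260 of all genes. Within females it was 0 and 0 by edgeR, with 13 at an unadjusted p under 0.05, against 504 and 434 of all genes. Within males it was 31 and 3, against 2236 and 1741 of all genes. Cox7a2 rose by 0.42 ± 0.08 (adjusted p = 0.00042) and Uqcrq by 0.47 ± 0.11 (adjusted p = 0.0017). The members called lower were Cox6a2 (by 1.18, SE 0.37, adjusted p = 0.015), Cox6b2 (by 0.43, SE 0.09, adjusted p = 0.00058) and Atp5s (by 0.29, SE 0.07, adjusted p = 0.0029), the last 2 without overlap between groups.

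Set against one another within each library, the complexes differed in distance between groups by little. The gap between the mean levels of complexes II and III was 1.16 ± 0.0265 (log2, SD) for WT, 1.06 ± 0.0690 for miR-142 KO, 1.02 ± 0.0533 for CP CML and 0.925 ± 0.0559 for BC CML. It differed by -0.0990 between miR-142 KO and WT and by -0.0963 between BC CML and CP CML, with overlapping libraries, and by -0.134 between CP CML and WT without overlap. The gap between II and IV differed by -0.0592 between CP CML and WT without overlap. In the other pairs and comparisons the libraries overlapped, and the differences ran from -0.131 to 0.109. Some directions turned when all tested members replaced the subunits: between BC CML and CP CML the II minus IV difference became 0.00794 and the IV minus V difference -0.0913, and between miR-142 KO and WT the II minus V difference became -0.0827. These are descriptions of sums over chosen members and were not tested.

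Other genes of the pathway, from lists chosen with earlier results known, held called genes in the shares that follow, against 20.4% of all genes higher in BC CML than in CP CML and 19.9% in miR-142 KO than in WT. Of the complex I subunits 28 of 36 were higher in BC CML than in CP CML and 18 of 36 in miR-142 KO than in WT, with 0 lower and medians of 0.24 and 0.20; Ndufb10, of the membrane arm, rose by 0.34 and 0.31. Of the complex IV assembly factors 7 of 21 (33.3%) and 4 of 21 (19.0%) were higher, the second near the share of all genes, led by Coa4 at 0.53 in BC CML against CP CML (adjusted p = 0.0014) and by Cox10, of heme synthesis for the complex, at 0.33 in miR-142 KO against WT (adjusted p = 0.0029). Of the complex III assembly factors, 3 of which are members, 4 of 6 and 2 of 6 were higher, among them Bcs1l, which inserts the Rieske protein, at 0.36 (adjusted p = 0.00017) and 0.17 (adjusted p = 0.045). Of the complex V assembly factors 2 of 5 were higher in each comparison, and of the genes for cytochrome c and coenzyme Q synthesis 4 of 12 (33.3%) in each, such as Coq4 at 0.43 and 0.31. None of these lists had a gene called lower in either comparison. A further list, of complex V stalk and membrane subunits, overlaps the members and had 14 genes tested. In it 9 were higher in BC CML than in CP CML and 6 in miR-142 KO than in WT. In miR-142 KO 1 gene of that list, outside the name rule, was called lower. Atpif1, the inhibitor of the ATP synthase, had 0.18 ± 0.08 (adjusted p = 0.072) and 0.19 ± 0.08 (adjusted p = 0.059). None of the 13 mitochondrially encoded subunits was found in the counts under the names searched, so they could not be analysed.

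Ndufa4, a subunit of complex IV that the name rule misses, followed the direction of most members in some comparisons and not in others. It lay in WT at 127 to 157 CPM, in the miR-142 KO group at 117 to 137, in CP CML at 114 to 134 and in BC CML at 128 to 145. It was higher by 0.17 ± 0.05 in BC CML than in CP CML (adjusted p = 0.017) and fell by 0.19 in miR-142 KO against WT (SE 0.05, adjusted p = 0.0077). By the same edgeR test it had -0.21 ± 0.05 in CP CML against WT (adjusted p = 0.0026). In BC CML against miR-142 KO it had 0.14 ± 0.05 (adjusted p = 0.038). Its interaction passed, 0.36 ± 0.08 with an adjusted p of 0.0095.

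Markers of other cells were summed as CPM in each library. Mast cell and basophil markers, all 7 of them detected, had the same order of groups as the complexes, with medians of 594 for WT (263 to 784), 1299 for miR-142 KO (431 to 2984), 2492 for CP CML (1676 to 3111) and 7232 for BC CML (4660 to 9918); 4 of 7 were called higher in BC CML and 5 of 7 in miR-142 KO, with 0 lower. Within groups the match was mixed. Of the libraries highest in most members, miR-142 KO replicate 3 had 912, WT replicate 6 had 561 and CP CML replicate 4 had 1676, the lowest of its group. Of those lowest in most members, CP CML replicate 6 had 2708 and BC CML replicate 3 had 4660, the lowest of its group. The part of these cells in the levels of the members was not tested. Proliferation markers had medians of 4356, 4342, 4020 and 4476 in that order of groups, with 2 of 8 (25.0%) called higher in BC CML and 1 of 8 (12.5%) in miR-142 KO, against 20.4% and 19.9% of all genes, and were highest in miR-142 KO replicate 3, at 4925. LSK gate markers had medians of 2740, 2440, 2610 and 2333, with 1 of 8 higher and 5 lower in BC CML and 1 higher and 4 lower in miR-142 KO.

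The other lists did not share the order of the complexes. Medians were 28.1, 128, 66.3 and 87.5 for mature neutrophil markers, 70.6, 122, 73.5 and 97.3 for T and NK cell markers, 20.9, 13.6, 4.98 and 3.58 for erythroid markers, 195, 428, 253 and 297 for megakaryocyte markers and 140, 86.8, 267 and 134 for macrophage markers, in the same order of groups. In BC CML against CP CML the calls higher and lower were 0 and 3 of 9 tested neutrophil, 1 and 1 of 5 T and NK cell, 0 and 1 of 6 erythroid, 1 and 1 of 7 megakaryocyte and 0 and 2 of 8 macrophage markers; in miR-142 KO against WT they were 5 and 0, 3 and 1, 0 and 1, 6 and 0, and 0 and 5. Over all genes 20.4% were higher and 17.6% lower in the first comparison and 19.9% and 16.4% in the second. In these lists no marker was at 0 throughout a group.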

How the data were processed

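RNA of sorted LSKs was sequenced on an Illumina NovaSeq. Per the study's methods and the submitters' processing notes, the authors trimmed the reads with Trimmomatic and FASTP, aligned them to mm10 with STAR 2.6.0 and counted them per gene with HTSeq 0.11.1. The table was deposited as raw counts with gene lengths; its annotation and strand setting are not given in the sources used here, so overlapping and antisense genes cannot be told apart. Groups follow the labels, with 6 mice in each, and replicate numbers follow accession order and pair nothing. P-values measure the spread between mice.

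All 24 libraries were fitted together with edgeR 4.0.16 in R 4.3.3 (TMM scaling, filterByExpr, quasi-likelihood test, Benjamini-Hochberg adjustment over 13520 genes, threshold 0.05). Complex means and plots used log2 CPM with a prior count of 2. Ratios were tested with SciPy 1.17.1. Alternatives were other scalings, filters and tests (DESeq2 1.42.0, the likelihood ratio test), sex as a covariate, each sex alone, the 12 samples compared alone and each library left out. The fit was tested on simulated data.

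The members and lists were chosen with earlier results of these data known. Named were, in each complex, the 3 members with the smallest p in BC CML against CP CML and the 2 in miR-142 KO against WT, those called against their complex, extremes of the comparisons with BCR-ABL, isoform pairs and 1 reference subunit; others were named after their values were seen. Read-length windows were matched to GENCODE M21 transcripts, and promoters are from RefSeq.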

Additional observations from a re-analysis of the deposited data

Results flagged for a closer look

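In groups of 6 libraries, a value was singled out where its gap to the nearest other library exceeded Dixon's 95% limit for the group's range. This held in 16 of 148 groups examined. Chance gives about 1 in 20 for a single group, but the groups reuse the same libraries and members that moved together. The 16 are therefore not independent, and the 2 shares cannot be compared directly. Of the 16, 12 were miR-142 KO replicate 3, a female. Its mean log2 CPM over subunits was 7.41 in complex II (the other 5 lay at 7.08 to 7.16) and 6.44 in complex III (5.96 to 6.13). Single genes of that library stood above their group at 135.7 CPM for Sdhd, 119 for Sdhb, 123 for Cyc1, 48.7 for Uqcrq, 32.6 for Uqcrb, 46.7 for Uqcc2, 144 for Cox6b1, 214 for Atp5g3 and 1434 for Atp5b. Its log2 ratio Sdhb/Sdha was -1.78. The same library had the highest summed proliferation markers of its group.

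Other single libraries were BC CML replicate 3 with a log2 ratio Cox6b2/Cox6b1 of -3.11, BC CML replicate 5 with Atpif1/Atp5b at -3.05, BC CML replicate 2 with Sdhaf2/Sdha at -2.99, and WT replicate 1 with Sdhaf2 at 49.3 CPM (the other 5 at 44.0 to 45.6).

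No member passed the interaction test by edgeR, but among the subunits outside the name rule that were listed, Ndufa4 of complex IV did: the loss of miR-142 went with a log2 difference larger by 0.36 in the BCR-ABL mice than in the mice without it.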

How the results depend on the processing

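The median changes of each complex kept their direction in BC CML against CP CML and in miR-142 KO against WT under each alternative run, and no named gene reversed a call. The counts of calls moved more, and the cause was not tested. No paired analysis was possible because replicate numbers only follow accession order and pair no mice. Over 24 fits with 1 library left out, 19 to 35 members were called in BC CML against CP CML (1 to 3 in complex II, 5 to 10 in III, 5 to 12 in V), 1 to 4 of complex II and 5 to 10 of III in miR-142 KO against WT, and 0 to 1 in the interaction, Sdhaf2 without CP CML replicate 1 and Atp5j without miR-142 KO replicate 3.

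With females only, calls were 2 in BC CML against CP CML (0 in II with a median of 0.0769, 0 in III, 1 in IV and 1 in V), 12 in miR-142 KO against WT (0 in II, 4 in III, 3 in V), 18 in CP CML against WT and 0 in BC CML against miR-142 KO. With males only they were 17 (1, 6, 4 and 6 in II to V), 4 (0, 1, 2 and 1) and 17 in the first 3 comparisons. Over all genes BC CML against CP CML had 1693 calls in females and 3794 in males. For miR-142 KO against WT these were 2308 and 2915. Upper quartile scaling gave 22 (1 in II, 5 in III, 7 in V), and in miR-142 KO against WT 5 in III and 4 in V. The 12 samples alone gave 16 in miR-142 KO against WT (1, 5 and 4 in II, III and V). Requiring 1 CPM in 6 samples left 1 call in complex II in BC CML against CP CML, and no filter left 1 in miR-142 KO against WT. DESeq2 called 1 member in the interaction.

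Library totals in place of TMM gave a complex II difference of 0.0787 between BC CML and CP CML. Over all tested members instead of subunits, complex IV differed by 0.0842 there. The differences between complexes were then 0.00794 (II minus IV, reversed), 0.146 (III minus IV) and -0.0913 (IV minus V, reversed) in BC CML against CP CML, and -0.165 (II minus III), -0.0827 (II minus V, reversed) and 0.132 (III minus IV) in miR-142 KO against WT. Without the members that share sequence, an alternative chosen after seeing the data, II minus IV was -0.0893 and III minus IV 0.00979 in miR-142 KO against WT. The mean levels of complexes IV and V then differed by 0.222 and 0.180 in miR-142 KO against WT. In BC CML against CP CML they differed by 0.265 and 0.217, beside 0.241 for complex III. Leaving out 1 library, log2 ratio differences ran from -0.382 to -0.233 for Cox7a2l/Cox7a2 in miR-142 KO against WT and from -0.319 to -0.235 in BC CML against CP CML, from -0.196 to -0.129 and from 0.0778 to 0.120 for Sdhaf2/Sdha, and in BC CML against CP CML from -0.408 to -0.287 for Cox6b2/Cox6b1 and from 0.0949 to 0.144 for Sdhb/Sdha.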
